A study of Homo sapiens with 2 samples.

Results

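The genes described here encode the proteins of the mitochondrial ribosome that carry the names MRPL or MRPS, for the large and the small subunit. They were chosen by symbol alone, as protein-coding genes named MRPL or MRPS plus a number and an optional letter. No measured value entered this rule, though earlier results of these data were known. The rule found 78 genes among the 28303 listed, 49 with MRPL and 29 with MRPS names, and each had a value in both libraries. RNA came from the established gastric cancer line HGC27, transfected with pcDNA3.1-control in 1 library and with pcDNA3.1-linc01133, a plasmid carrying the long non-coding RNA LINC01133, in the other, and taken 48 h later. Transfection acts on a pool of cells in which some may carry no plasmid. Each group held 1 library, so no difference below has a replicate check, none was tested for significance, and every statement describes these libraries.

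The mitochondrial ribosome sits in the mitochondrial matrix and makes only the few proteins that mitochondrial DNA encodes, all of them membrane subunits of the respiratory chain and of ATP synthase. Its ribosomal RNAs are transcribed from mitochondrial DNA, while its proteins are encoded in the nucleus, made in the cytosol and imported. Part of these proteins descend from those of bacterial ribosomes, and the rest have no counterpart there. Some names mislead: MRPS30 and MRPS18A belong to the large subunit, and MRPS36 is now assigned to the oxoglutarate dehydrogenase complex of the citric acid cycle.

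Levels are given as FPKM, that is fragments relative to exon length and to library depth, for a rough comparison of levels between genes. The exon length is that of all annotated exons merged, which can exceed the length of the coding transcript. For MRPL13 it was 4209 bases against 1086, so ranks by level are approximate. The depth recovered from the values was 15666629 fragments for the control library and 16302581 for the overexpression library. Fragments summed over the genes with an exon length came to somewhat more, 16016532 and 16677395. Intervals in brackets are 95% and cover counting error only. LINC01133 itself was counted with 4 fragments under the control plasmid (FPKM 0.0809) and with 74 under its own (FPKM 1.44). Of 11 epithelial markers with values, 1 reached a mean FPKM of 1 (MUC1), while EPCAM and CDH1 did not. Of 6 mesenchymal markers 5 reached it, among them VIM with FPKM values of 198 and 210. The mesenchymal CDH2 did not, with 0.0516 and 0.0744 from 4 and 6 fragments. Gene lists were described by counts and medians beside those of all genes.

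Together the 78 genes took 0.483% of the recovered depth of the control library and 0.446% of that of the overexpression library, or 75654 and 72766 fragments. In RNA from whole cultures, fewer cells that express a gene and less RNA per cell cannot be told apart. Their levels differed widely from gene to gene. A mean FPKM of at least 10 over both libraries was found for 56 genes, a mean of 1 to 10 for 17, and a mean under 1 for 5. The 73 genes with a mean of at least 1 were kept for the counts that follow. At least 100 fragments in each library stood behind 70 of the 78 genes.

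The highest level belonged to MRPS34, a small subunit protein with no bacterial counterpart. Its FPKM was 120 (115 to 125) in the control library and 101 (96.7 to 106) with LINC01133. Next came MRPL37, with 108 (104 to 111) and 74.6 (72.0 to 77.3), a large subunit protein also specific to mitochondria. MRPL14, of the universal uL14 family at the face that meets the small subunit, had 81.8 (77.3 to 86.5) and 59.6 (55.8 to 63.6). MRPL13, a uL13 homologue, had 52.0 (50.3 to 53.8) and 68.9 (67.0 to 70.9). In the first 3 the control was the higher library and in MRPL13 the lower, and the intervals of the libraries did not overlap in any of the 4.

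The 4 lowest genes above the filter were MRPL53 (mean FPKM 1.51), MRPS17 (1.73), MRPL12 (2.14) and MRPL42 (2.37). MRPL42 ranked this low with 363 and 891 fragments, over a merged exon length of 16393 bases. MRPL53 had FPKM values of 1.47 and 1.55, from 31 and 34 fragments, and MRPS17 1.98 and 1.48, from 67 and 52. Their ratios had intervals that include 1. MRPL12 encodes the flexible stalk protein that recruits translation factors and is present in several copies per ribosome. It had FPKM values of 2.67 (1.93 to 3.60) and 1.61 (1.06 to 2.34), from 43 and 27 fragments. These intervals overlapped, while that of its ratio, 0.603 (0.359 to 0.999), lay just below 1. Its stalk partner MRPL10 stood far above it in both libraries, at 48.5 and 30.8.

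**Figure D1:**
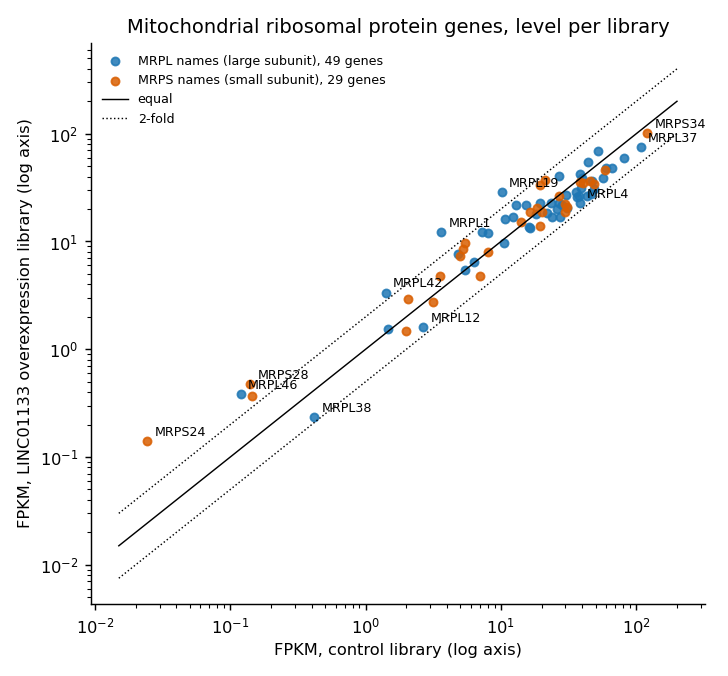
FPKM of the 78 mitochondrial ribosomal protein genes in the control (horizontal, log axis) and the LINC01133 overexpression library (vertical, log axis), 1 point per gene, with lines at equal values and at 2-fold. Most points lie near the line of equal values; MRPL1, MRPL19 and MRPL42 lie above the upper 2-fold line, as do the rarely counted MRPS24, MRPS28, MRPL46 and MRPS18C.

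The 8 genes with under 100 fragments in a library all shared exon bases with another gene. Of the 52 members that shared under 10% of their exon bases with another gene on either strand, all 52 passed the filter, and of the 26 that shared 10% or more, 21 did. The 5 under the filter shared between 11.3% and 41.1%. MRPS24, of the uS3 family at the entry of the messenger RNA, had 1 and 6 fragments, and the read-through gene URGCP-MRPS24 covered 23.2% of its exon bases on the same strand. MRPS28 had 4 and 14 fragments, MRPS18C 11 and 29, MRPL46 12 and 40, and MRPL38 24 and 14. Over all 78 genes the Spearman correlation of the shared percentage with the mean FPKM was -0.317, a description across genes that share both libraries. MRPL12 shared the most, 68.2%, with a read-through gene on its own strand, and MRPL53 shared 45.2%, but MRPS18A shared 47.0%, all on the opposite strand, and had FPKM values of 29.5 and 18.7. The sources used here do not say how fragments that fall in 2 genes were counted, so the levels of these genes are uncertain, and the part of shared exons in them was not tested.

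**Figure D2:**
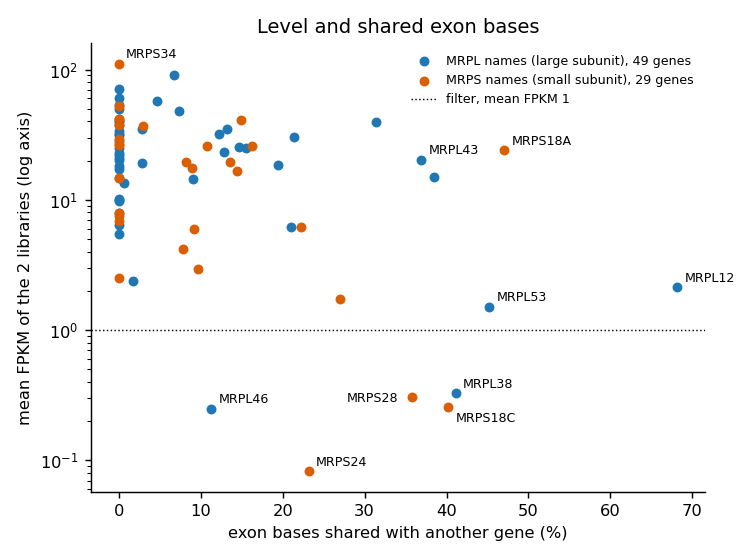
Percentage of exon bases shared with another gene (horizontal) and mean FPKM of both libraries (vertical, log axis) for the 78 genes, with a dotted line at the filter of 1. The 5 genes under the line lie between 11.3% and 41.1%, and no gene sharing under 10% lies below it.

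Between the libraries most of these genes differed little, and more were lower than higher in the overexpression library. Log2 ratios set FPKM + 1 of the overexpression library over that of the control. Of the 73 genes, 45 (61.6%) had a log2 ratio below 0, against 44.6% of the 11945 genes past the filter. At least 2-fold higher were 2 genes (2.74%), against 11.9% of all genes, and at least 2-fold lower were 0, against 0.444%. Their median was -0.15 (quartiles -0.45 and 0.35, range -0.74 to 1.51), beside a median of 0.10 over all genes. Over all 78 genes, those under the filter included, 46 were below 0 and the median was -0.11. Among the 52 members that shared under 10% of their exon bases, 28 were below 0 and the median was -0.014. The 20 past the filter that shared 10% to 50% had 16 below 0 and a median of -0.30, and MRPL12, which shared more, was at -0.49. The part of shared exons in this was not tested. A size factor from the trimmed mean of M values shifted the log2 ratios of FPKM by 0.21, which took the median of all genes to -0.08, that of the members to -0.31 and the members below 0 to 52. In 58 of the 73 genes the difference was under 1.5-fold. Beyond it stood 9 members on the upper and 6 on the lower side, beside 3199 and 632 of the 11945 genes.

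Counting error was small beside many of these differences. The interval of the ratio of FPKM lay wholly below 1 for 35 of the 72 genes with an interval (48.6%), against 32.2% of all genes with one, and wholly above 1 for 25 (34.7%), against 42.6%. For 12 genes it included 1. Such an interval compares the fragments of these libraries and says nothing of other cultures.

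**Figure D3:**
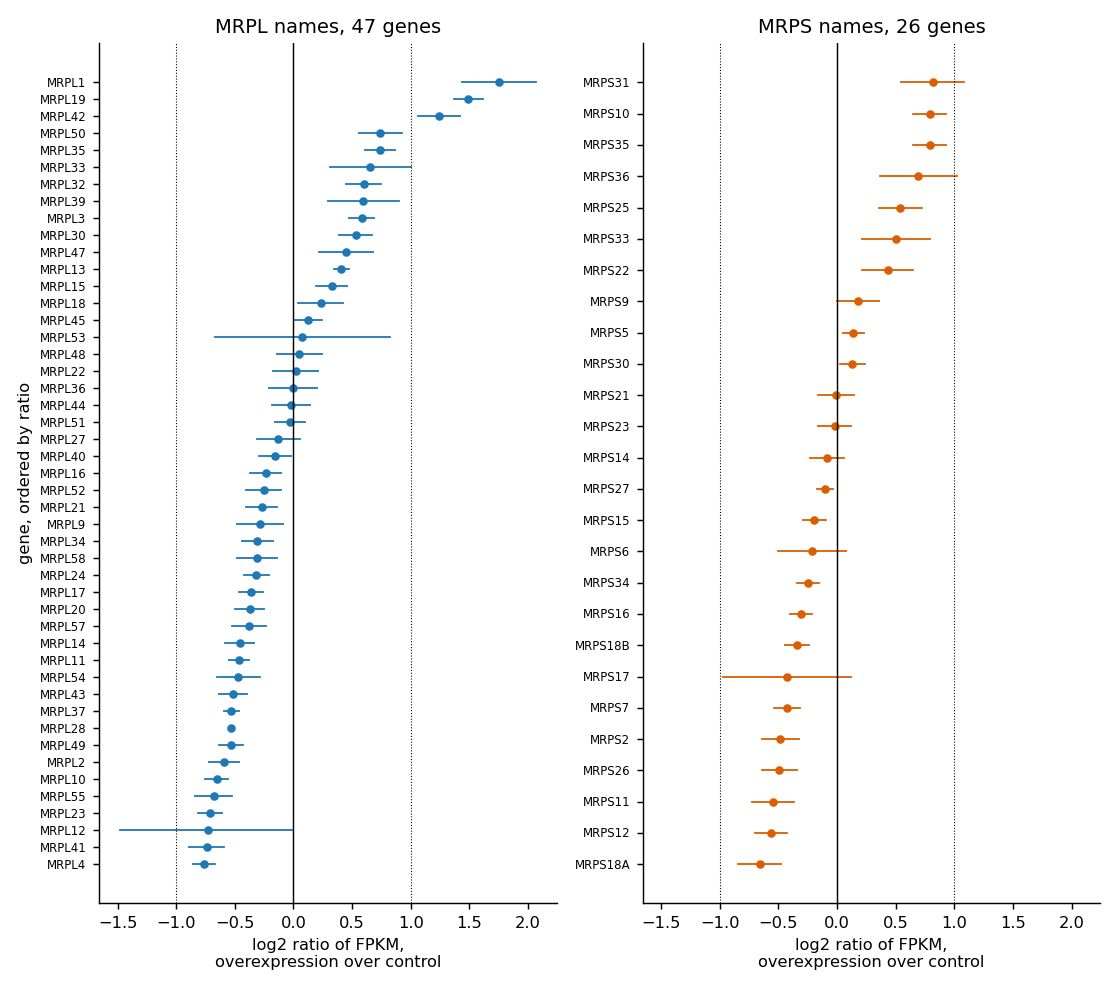
Log2 ratio of FPKM, overexpression over control, for the 47 MRPL and 26 MRPS genes past the filter, ordered by ratio within each panel, with bars for the 95% counting interval (MRPL28 has none) and dotted lines at 2-fold. MRPL1, MRPL19 and MRPL42 lie beyond 2-fold on this scale without an added 1, and no gene lies beyond 2-fold on the lower side.

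Both genes that were at least 2-fold higher encode large subunit proteins with bacterial counterparts. MRPL1 (ENSG00000169288) is the homologue of the L1 protein, which forms the mobile stalk beside the exit site of the transfer RNA. Its FPKM was 3.61 (2.97 to 4.36) in the control library and 12.2 (11.0 to 13.4) with LINC01133, from 110 and 385 fragments, a ratio of 3.36 (2.71 to 4.20) and a log2 ratio of 1.51. MRPL19 (ENSG00000115364), of the bL19 family, had 10.2 (9.43 to 10.9) and 28.5 (27.3 to 29.8), a ratio of 2.81 (2.58 to 3.06) and a log2 ratio of 1.40. In both genes the overexpression library was the higher one and the intervals did not overlap. MRPL42, a protein with no bacterial counterpart, came next below the threshold, with 1.41 (1.27 to 1.57) and 3.33 (3.12 to 3.56). Its ratio of 2.36 (2.09 to 2.67) is above 2, but its log2 ratio of FPKM + 1 was 0.84, since the added 1 weighs on a low value.

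Large subunit proteins were also at the lower end. MRPL4, a uL4 protein that reaches into the tunnel of the nascent chain, had FPKM values of 38.3 (36.8 to 39.8) and 22.6 (21.4 to 23.7), a ratio of 0.589 (0.552 to 0.629) and the smallest log2 ratio of the set, -0.74. MRPL41, specific to mitochondria, had 46.5 and 27.9 (log2 ratio -0.72). MRPL23, of the uL23 family at the tunnel exit, had 43.3 and 26.5 (-0.69). These 3 were lower in the overexpression library with intervals of the ratio wholly below 1. MRPL55 (-0.65), the stalk base protein MRPL10 (-0.64) and MRPS18A (-0.63) followed. MRPL2 (30.7 and 20.3), homologue of a protein beside the peptidyl transferase centre, was lower as well, while MRPL3 (26.8 and 40.1), of the uL3 family, was higher with a ratio of 1.496 (1.39 to 1.61). MRPL22, of the uL22 family at the tunnel exit, had FPKM values of 5.39 and 5.46, with a ratio of 1.01 (0.888 to 1.16). MRPL45, which ties the ribosome to the inner membrane, had 38.7 and 42.2 (log2 ratio 0.12), a direction that turns with the scaling above. MRPL58, a peptidyl-tRNA hydrolase built into the large subunit, had 35.7 and 28.8 (-0.30).

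Among the MRPS genes none was 2-fold apart. The largest log2 ratios were 0.76 for MRPS10, of the uS10 family in the head of the subunit, 0.76 for MRPS35 and 0.71 for MRPS31, both specific to mitochondria. MRPS10 had FPKM values of 19.3 (17.8 to 20.9) and 33.4 (31.5 to 35.4). MRPS35 had 21.3 (19.7 to 23.0) and 36.8 (34.8 to 39.0), and MRPS31 5.47 (4.70 to 6.32) and 9.62 (8.61 to 10.7). All 3 were higher in the overexpression library without overlap of the intervals. MRPS12, the decoding centre protein whose bacterial counterpart is the target of streptomycin resistance, had 30.9 (29.1 to 32.9) and 21.0 (19.5 to 22.5), a ratio of 0.678 (0.616 to 0.746). The paralogues MRPS18A, MRPS18B and MRPS18C, of which each ribosome uses all, stood at different levels. MRPS18B had 58.9 and 46.4 and MRPS18A 29.5 and 18.7, both lower in the overexpression library, while MRPS18C had 0.144 and 0.366 from 11 and 29 fragments and shared 40.2% of its exon bases with ABRAXAS1 on the other strand. MRPS30, the other large subunit protein with an MRPS name, had 13.96 and 15.3 (log2 ratio 0.12). MRPS36, of the dehydrogenase complex, had 5.26 and 8.50 (0.60).

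Grouped by name and by role, the members had the following medians. The 47 MRPL genes had a median log2 ratio of -0.23, with 29 below 0, and the 26 MRPS genes -0.09, with 16 below 0. By place in the particle the 49 genes of the large subunit had a median of -0.23 and the 23 of the small subunit -0.10. The 42 genes with a bacterial counterpart had a median of -0.21, with 27 below 0, and the other 31 a median of -0.03, with 18 below 0. This split put MRPS36 among the 31, and also MRPS18A and MRPS18B, although their paralogue MRPS18C was placed in the bS18 family. Within the small subunit this split had medians of opposite sign: -0.19 for the 13 genes with a bacterial counterpart, with 10 below 0, and 0.17 for the 10 others, with 5 below 0. In the large subunit the medians were -0.23 for 29 genes and -0.20 for 20. With trends on GC content and transcript length over all genes subtracted, the small subunit groups had medians of -0.02 and 0.07. The large subunit groups then had 0.03 with a bacterial counterpart and -0.09 without. For both subunits together these medians were 0.02 and -0.04. In these last 2 comparisons the order was the opposite of that before. None of these differences was tested. The range by name, from -0.74 to 1.51 for MRPL names and from -0.63 to 0.76 for MRPS names, was wider than the distance between the medians of any of these groups.

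The direction of the difference went with the base composition of the transcript. Of the 24 members with the lowest GC content, from 34.96% to 45.6%, 4 (16.7%) had a log2 ratio below 0. This share was above that of the protein-coding genes in that range, 129 of 3821 (3.38%). Of the 25 with the highest, from 52.8% to 71.9%, 24 were below 0, as were 3617 of 3992 genes (90.6%), so the share at high GC content is near that of any gene there. Spearman's rho between log2 ratio and transcript GC was -0.844 over the 73 members, -0.863 over the MRPL and -0.770 over the MRPS genes, and -0.855 over the 10335 protein-coding genes past the filter. With the GC content of the coding part alone it was -0.842 over the members, and with that of the 3′ UTR -0.811. These correlations are across genes, which share both libraries and are no replicates, and are given as descriptions. MRPL1 and MRPL19 had GC contents of 39.1% and 38.3%, MRPL42 38.4%, MRPL4 64.9% and MRPL41 71.9%.

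Medians of the members lay below those of protein-coding genes in the same 3 ranges of GC content. The 24 members with the lowest GC content had a median log2 ratio of 0.55, and the 3821 protein-coding genes in that range 0.75. In the middle 24, from 46.4% to 52.7%, the medians were -0.23 for the members and 0.03 for 2064 genes, and in the upper 25 -0.48 for the members and -0.34 for 3992 genes. Of the 24 members at the low end, 2 were at least 2-fold higher, and of the 3821 genes 1088 were. The members' transcripts were also shorter, with a median length of 1532 bases against 3451 for protein-coding genes.

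With trends on GC content and transcript length over all genes subtracted, the median of the members came closer to that of all genes but stayed lower. The members had a median of -0.0063 and all genes 0.10, and 37 of 73 members (50.7%) lay below 0, against 35.8% of all genes. The subtraction puts the median of all genes back at its value before, so a value is read against that median and not against 0. The distance between the quartiles was 0.80 before and 0.32 after. No member was then 2-fold apart. This distance was rare in general: 202 of 11913 genes reached it on the upper side and 91 on the lower. Among 10335 protein-coding genes 81 and 11 did, so a count of 0 does not set the members apart. MRPL1 was at 0.76, MRPL19 at 0.49, and the small subunit protein MRPS5 and the bL32 protein MRPL32 followed at 0.44 and 0.43. At the lower end MRPS14, of the uS14 family, was at -0.79, MRPL22 at -0.69, MRPL50 at -0.53 and MRPS36 at -0.49. MRPS14 and MRPL22 stand out in the plot of log2 ratio by GC content, since with GC contents of 39.9% and 40.4% they differed little between the libraries: MRPS14 had FPKM values of 19.98 (18.6 to 21.4) and 18.8 (17.5 to 20.2), which overlap. MRPS34, at -0.24 as deposited and a GC content of 64.5%, was at 0.35 after subtraction.

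**Figure D4:**
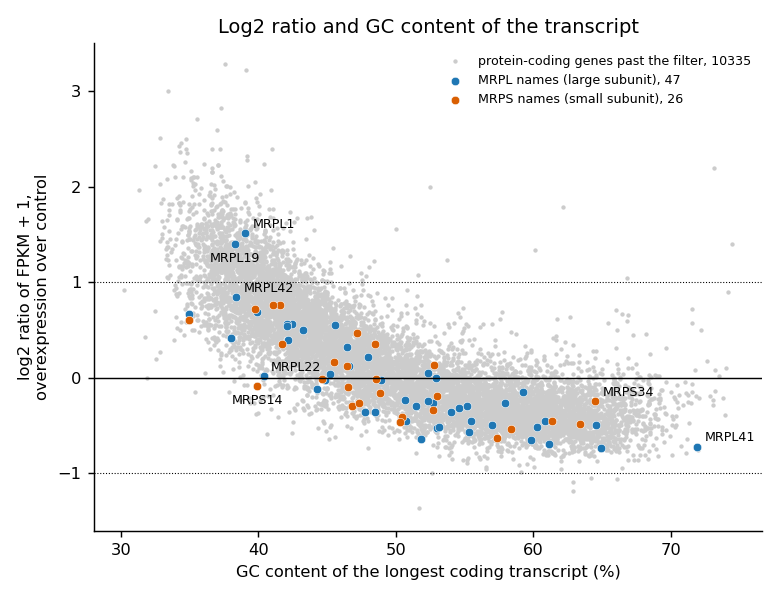
Log2 ratio of FPKM + 1, overexpression over control, by GC content of the longest coding transcript, for 10335 protein-coding genes (grey), 47 MRPL and 26 MRPS genes past the filter, with dotted lines at 2-fold. The members run along the grey cloud from above 0 at low to below 0 at high GC content; MRPS14 and MRPL22 lie under most genes of their composition.

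The sequences in front of the genes are shown to set the ends of the range side by side, and because the promoters share letters that the choice by name did not use. RefSeq promoters (GRCh38.p14, 250 bases before to 50 after the start) were matched for 69 of the 78 members; MRPL2, MRPL10, MRPL13, MRPL15, MRPL21, MRPL23, MRPL35, MRPS28 and MRPS36 had no entry. Printed are the 150 bases before the start on the gene's strand, 5′ to 3′, with the NRF1, ETS, YY1 and E-box cores in capitals and the other letters searched in lower case, for the genes with the largest and smallest log2 ratio (MRPL1, MRPL19, MRPL4, MRPL41), for the most abundant (MRPS34), for one with several NRF1 cores (MRPL17), and for 2 with an ETS core that differed in opposite directions (MRPS31, MRPS18A). They lie at chr4:77862680-77862829, chr2:75646633-75646782, chr19:10251801-10251950 and chr9:137551729-137551878 on the plus strand, and at chr16:1773135-1773284, chr11:6683341-6683490, chr13:40771191-40771340 and chr6:43687792-43687941 on the minus strand.
MRPL1: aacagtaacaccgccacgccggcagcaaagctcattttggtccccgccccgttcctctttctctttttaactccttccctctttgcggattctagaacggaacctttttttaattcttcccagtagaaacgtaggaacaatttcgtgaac
MRPL19: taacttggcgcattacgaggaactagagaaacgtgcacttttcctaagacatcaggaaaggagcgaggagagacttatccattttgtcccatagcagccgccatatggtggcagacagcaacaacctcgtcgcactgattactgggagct
MRPL4: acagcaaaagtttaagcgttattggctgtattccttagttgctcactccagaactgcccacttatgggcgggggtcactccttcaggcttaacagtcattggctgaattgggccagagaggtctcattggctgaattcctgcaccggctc
MRPL41: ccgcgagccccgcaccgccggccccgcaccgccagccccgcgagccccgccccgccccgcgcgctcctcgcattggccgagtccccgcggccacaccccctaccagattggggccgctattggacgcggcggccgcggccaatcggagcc
MRPS34: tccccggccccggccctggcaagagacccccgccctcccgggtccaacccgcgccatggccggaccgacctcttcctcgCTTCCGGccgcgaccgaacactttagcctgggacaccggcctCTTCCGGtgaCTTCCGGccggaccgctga
MRPL17: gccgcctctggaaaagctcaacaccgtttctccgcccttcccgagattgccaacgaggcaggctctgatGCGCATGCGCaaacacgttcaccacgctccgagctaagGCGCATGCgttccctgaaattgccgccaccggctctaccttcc
MRPS31: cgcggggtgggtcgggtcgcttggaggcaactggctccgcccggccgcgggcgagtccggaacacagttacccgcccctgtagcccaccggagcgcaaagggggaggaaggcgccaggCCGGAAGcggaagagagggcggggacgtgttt
MRPS18A: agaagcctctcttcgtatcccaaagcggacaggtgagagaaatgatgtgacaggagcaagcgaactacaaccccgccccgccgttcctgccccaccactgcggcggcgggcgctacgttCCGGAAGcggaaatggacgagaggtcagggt

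Each core was searched on both strands of the 300 bases. The ETS core CCGGAAG, bound by factors such as GABP that are known for nuclear genes of mitochondria, was in 29 of 69 member promoters (42.0%), in 20.4% of 8275 promoters of protein-coding genes past the filter and in 10.7% of 27305 promoters in all. The YY1 core AAGATGG was in 23 members (33.3%), in 8.15% of the promoters of the protein-coding genes past the filter and in 6.06% of all. In 16 of these 23 it reached past the start, and in 23 of the 29 with an ETS core that core lay wholly before it. The NRF1 core GCGCATGC, part of a palindrome that can match on both strands at once, was in 6 members (8.70%) and in 5.79% of the protein-coding promoters, and the E-box CACGTG in 6 members (8.70%) and 10.4%. The SP1 GC box GGGCGG was in 42 members (60.9%) and in 72.8% of the protein-coding promoters, and the CCAAT box CCAAT in 20 members (28.99%) and 37.1%. The TATA box TATAAA was in 2 members, or 2.90%, against 4.83%. Over all 27305 promoters the shares were 3.27% for NRF1, 7.43% for the E-box, 44.6% for the GC box, 35.7% for CCAAT and 11.95% for TATA. A match is a description of letters and was not tested as a binding site.

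Medians of the log2 ratio with and without each core were also compared, with no test. Past the filter the 27 members with an ETS core had a median of -0.12 and the 38 without -0.17, and the 20 with a YY1 core -0.06 and the 45 without -0.16. For the GC box they were -0.21 in 40 members with it and -0.0095 in 25 without, and for CCAAT -0.12 in 19 and -0.16 in 46. Few members carry the others: NRF1 had -0.24 in 5 and -0.14 in 60, the E-box -0.0034 in 5 and -0.16 in 60, and TATA -0.32 in 2 and -0.12 in 63. Taking out both trends turned the order for YY1 (-0.08 with, 0.05 without), CCAAT (-0.14, 0.05), the E-box (-0.20, 0.03) and TATA (0.11, 0.0071). The order stayed for ETS (0.03, -0.02), NRF1 (-0.02, 0.03) and the GC box (0.00038, 0.04). MRPS31 and MRPS18A both carry an ETS core close before the start, and had log2 ratios of 0.71 and -0.63. MRPL1 and MRPL4, at the ends of the range, had no NRF1, ETS, YY1 or E-box core in the bases printed. The GC contents of their promoters were 51.7% and 51.3%, while those of their transcripts were 39.1% and 64.9%. Over 65 members Spearman's rho between log2 ratio and promoter GC was -0.256, again a description across genes.

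The same ribosome holds subunits with other names, of which 5 were listed. GADD45GIP1, a large subunit protein, had FPKM values of 102 and 102 (interval of the ratio 0.950 to 1.05). DAP3, a GTP-binding protein of the small subunit, had 33.6 and 36.7, and PTCD3, its pentatricopeptide repeat protein, 7.38 and 13.6 (ratio 1.84, 1.71 to 1.98). AURKAIP1 had 85.7 and 54.8 and CHCHD1 17.2 and 13.4, both lower in the overexpression library. Of these 5, 0 were 2-fold apart, 2 had a log2 ratio below 0, and the median was 0.00041, against -0.15 for the members. The ribosomal RNAs that these proteins bind were both higher in the overexpression library, MT-RNR1 of the small subunit with 1707 and 2082 (log2 ratio 0.29) and MT-RNR2 of the large subunit with 7695 and 12505 (0.70). The libraries were made from RNA bound to poly-T beads, and the part of that step in these values was not tested.

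Other lists of mitochondrial gene expression are given by their counts and medians, beside -0.15 for the members and 0.10 for all genes. Of 26 assembly factors past the filter, which process the ribosomal RNA and build the particle, 0 were 2-fold higher, 0 lower and 20 below 0, with a median of -0.19. The GTPase ERAL1, a chaperone of the small ribosomal RNA, had 42.0 and 27.3, the methyltransferase TFB1M 2.24 and 2.91, and FASTKD2, the largest of the list, 3.03 and 6.77 (log2 ratio 0.95). Of 16 translation factors 3 were 2-fold higher and 0 lower, 4 were below 0 and the median was 0.52. Their elongation factor TUFM had 409 and 260 (-0.65), the smallest of the list, while GFM1, which drives translocation, had 2.25 and 3.99, and the initiation factors MTIF2 and MTIF3 had 8.40 and 17.1 and 5.61 and 8.53. LRPPRC, which stabilises mitochondrial messenger RNA, had 22.6 and 47.3 (1.03), and the deformylase PDF, the largest, 0.441 and 3.97 (1.79) from 8 and 75 fragments. PDF shared 48.3% of its exon bases with another gene, so its level is uncertain.

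Of 21 aminoacyl-tRNA synthetases and their partners 0 were 2-fold higher or lower, 11 were below 0 and the median was -0.03, from VARS2 at -0.64 to RARS2 at 0.71. Of 18 genes of mitochondrial transcription and RNA processing 3 were 2-fold higher, 0 lower and 5 below 0, with a median of 0.40. The polymerase POLRMT had 48.3 and 32.8 (log2 ratio -0.55) and its activator TFAM, the largest of the list, 2.25 and 11.0 (1.89), with GC contents of 66.3% and 38.4%, and TBRG4 was the smallest at -0.59. The 13 messenger RNAs that the ribosome translates had a median of -0.03 with 9 below 0, from MT-ND1 at -0.43 to MT-ATP8 at 0.79. MT-ATP8 rested on only 17 and 33 fragments and shared 22.2% of its exon bases, and MT-ND4L came next at 0.19. Median GC contents were 48.9% for the members, 52.8% for assembly factors, 49.9% for synthetases, 42.6% for translation factors and 42.3% for transcription and RNA processing. With the trends subtracted the medians of the 4 nuclear lists lay between 0.03 and 0.04 and that of the messenger RNAs at -0.35.

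Beside the ribosome of the cytosol, the genes of the mitochondrial ribosome had lower levels and a median log2 ratio closer to that of all genes. The 82 cytosolic ribosomal protein genes past the filter had median FPKM values of 225 (control) and 196 (LINC01133), the 73 members 23.3 and 21.6. Their median log2 ratios were -0.24 and -0.15 as deposited, and -0.21 and -0.0063 with the trends subtracted, at like median GC contents of 49.0% and 48.9%. RPL10L was the cytosolic gene with the smallest log2 ratio, -1.37 from only 35 and 6 fragments, and RPS23 that with the largest, 0.85. Of the cytosolic genes 58 of 82 were below 0, and 57 after subtraction. The difference between these lists was not tested.

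**Figure D5:**
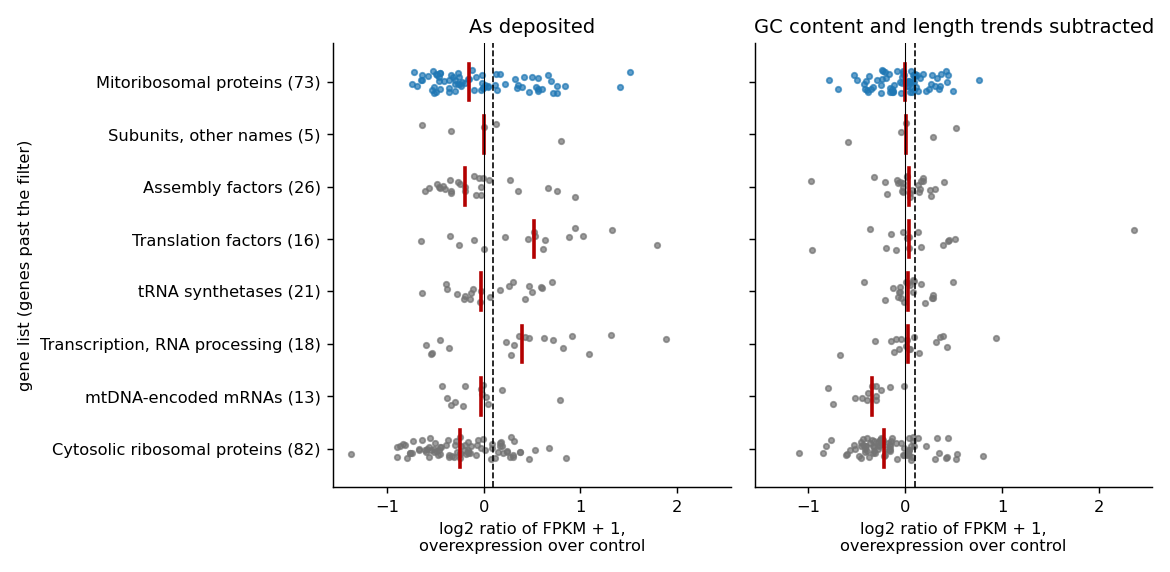
Log2 ratio of FPKM + 1, overexpression over control, as deposited (left) and with the trends subtracted (right), 1 point per gene past the filter, with a red bar at each list's median and a dashed line at the median of all genes. The 73 members centre at -0.15 and then at -0.0063, and the medians of translation factors (0.52) and transcription genes (0.40) move to 0.04 and 0.03.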

How the data were processed

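RNA of 2 libraries, 1 per group, was analysed. The deposited values are not named by the labels and were read as FPKM scaled by the authors: times the merged exon length in GENCODE 29 they are whole fragments, within 0.02, for 94.5% (control) and 94.4% (LINC01133) of 28109 genes. That step gave the depths. The genome build GRCh38 and the tools HTSeq 0.6.0, HISAT2 2.1.0 and Bowtie2 2.2.3 are named in the submitters' processing notes. Their roles, the annotation, the strand setting and the treatment of shared fragments are not given in the sources used here.

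The filter kept a mean FPKM of 1 or more. Log2 ratios use FPKM + 1 and a threshold of 2-fold. Intervals are exact Poisson for levels and Clopper-Pearson for ratios. GC content and length were those of each gene's longest protein-coding transcript with an annotated 3′ UTR, and trends were subtracted by lowess (span 0.3). No p-value was computed. Depth and trend steps were tested on simulated data. Python 3.11.15, scipy 1.17.1 and statsmodels 0.14.6 were used.

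The members and lists were chosen with earlier results of these data known. Named were the 6 members at each end of the log2 ratio, the 4 at each end of level and of the trend-subtracted ratio, members under the filter, chosen subunits, and the ends of each list. Members named for a role or as neighbours in the particle were chosen after their values were seen. MRPL28 was not whole in fragments and has no interval.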

Additional observations from a re-analysis of the deposited data

How the results depend on the processing

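No paired analysis was possible because only 1 library stood in each group, and for the same reason none could be left out. Depth limits MRPS24, MRPS28, MRPS18C, MRPL46, MRPL38, MRPL53, MRPL12 and MRPS17 most, each under 100 fragments in a library. Of 60 values recomputed, 42 stayed within 1.5 times the reported count or, for medians, kept their sign and moved by less than the median counting error of a member (0.142). The 2 members at least 2-fold higher became 9 at 1.5-fold, beside 3199 of all 11945 genes, and 0 at 4-fold. Their count was also 0 with the trends subtracted, and again by the longest transcript of any type. The 0 at least 2-fold lower became 6 at 1.5-fold, beside 632 of all 11945 genes. Their count was 1 with those trends taken on the longest transcript whatever its type. The median of the members (-0.15) became -0.31 with size factors from the median of ratios, -0.31 with the trimmed mean of M values, and -0.0063 with the trends subtracted. For MRPL names (-0.23) it became -0.42, -0.43 and -0.0063, and -0.037 by the longest transcript of any type. For MRPS names (-0.09) it became -0.29 by both scalings, and turned to 0.00082 with the trends subtracted, where all genes had a median of 0.10. By the longest transcript of any type it stayed below 0, at -0.16, so that turn depended on the transcript used. Among members sharing under 10% of their exons the median of MRPS names turned to 0.056. The 52 such members together had a median of -0.014, with 28 below 0. Those last members and the transcript of any type were alternatives chosen after the data were seen; the latter was used in a first calculation by mistake. The cause of these moves was not tested.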

Other observations

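Copies of these genes lie elsewhere in the genome. GENCODE 29 names 75 pseudogenes after 34 of the 78 members, of which 14 were listed with values, and fragments of near-identical copies are uncertain. MRPS21 had the most, with 8, and FPKM values of 26.7 and 26.5. The members lie on 21 chromosomes.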
